A study of Sus scrofa with 12 samples.

Results

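The 7 subunits of respiratory complex I that mammals encode in the mitochondrial genome were examined in IPEC-J2 cells, a porcine cell line from the small intestinal epithelium, with and without the plant naphthoquinone deoxyshikonin. They were taken by Ensembl identifier, not by any measured value, and are 7 of the 32518 gene identifiers in the deposited table: MT-ND1 (ENSSSCG00000018065), MT-ND2 (ENSSSCG00000018069), MT-ND3 (ENSSSCG00000018084), MT-ND4L (ENSSSCG00000018086), MT-ND4 (ENSSSCG00000018087), MT-ND5 (ENSSSCG00000018091) and MT-ND6 (ENSSSCG00000018092). All 7 matched the corresponding symbol in the pig gene name table and all 7 passed the minimum mean of 1 TPM that left 11897 genes for testing. TPM, the unit of the table, is the abundance of a gene per unit of its length as a part of a fixed library total.

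Total RNA was sequenced from 4 groups of 3 libraries, 12 in all. Con_6 and Con_24 are control cells that received no treatment, collected at 6 h and 24 h. Deo_6 and Deo_24 are cells exposed to deoxyshikonin at 5 µmol/L and collected at the same times. The labels name no solvent control, so any solvent of the compound differs between the groups together with the compound, and nothing in them says that the 3 libraries of a group came from separate cultures. The p-values therefore measure only the spread between these libraries, which may be technical.

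Complex I, NADH:ubiquinone oxidoreductase, is the entry point of electrons from NADH into the respiratory chain and pumps protons across the inner mitochondrial membrane. The mitochondrially encoded subunits are hydrophobic proteins that form the core of its membrane arm. MT-ND2, MT-ND4 and MT-ND5 are the antiporter-like subunits. MT-ND1 lies at the junction with the matrix arm, next to the site where ubiquinone is reduced, and MT-ND3, MT-ND4L and MT-ND6 are small subunits between these. All other subunits are made from nuclear genes. The mitochondrial genome is transcribed from both strands into long precursors, which are cut into single messenger RNAs largely at the transfer RNAs between them, so that the level of each RNA depends on its own processing and decay as well as on transcription. Naphthoquinones such as deoxyshikonin are redox-active compounds.

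In the pig mitochondrial genome as annotated by RefSeq (assembly Sscrofa11.1), the 13 protein-coding genes follow each other in the order ND1, ND2, COX1, COX2, ATP8, ATP6, COX3, ND3, ND4L, ND4, ND5, ND6 and CYTB. Only ND6 lies on the opposite strand. ND4L shares bases with ND4, and ND5 shares bases with ND6. The sources do not state whether the libraries kept strand. Without strand, reads from RNA of either strand cannot be told apart, at the bases shared by ND5 and ND6 or over the rest of ND6. The values of MT-ND5 and MT-ND6 may thus not be separate readings, which was not tested. How reads from ND4L and ND4, which form one RNA in mammals, were divided is not given either. The same holds for reads that also match nuclear copies of mitochondrial sequence. Coordinates and sequences are not printed, because the genome build of the deposited table is not given in the sources used here.

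The libraries of each group were close to each other, with Pearson's r of 0.981 to 0.988 across the tested genes, and 5 of the 6 listed epithelial marker genes were matched and present in every library, among them KRT8 at 1155 to 2336 TPM and EPCAM at 187 to 511 TPM. The summed TPM of these 5 markers was 2882 to 2967 in Deo_6 and 4802 to 5103 in the other 3 groups. At 6 h 4 of the 5 were lower in treated cells, and CDH1 was higher. Its means were 528 TPM in Con_6, 581 TPM in Deo_6, 580 TPM in Con_24 and 680 TPM in Deo_24. Markers of other cell types were low. The summed TPM of 5 mesenchymal genes was 3.28 to 9.95, lowest in Deo_24 at 3.28 to 3.94. That of 4 leukocyte genes was at most 0.63 in control and 2.32 to 4.6 in treated libraries. In treated cells it was nearly all CD68, with means of 2.62 TPM in Deo_6 and 3.88 TPM in Deo_24. CD68 was at 0.17 TPM in Con_6 and 0.19 TPM in Con_24, and PTPRC was at most 0.05 in every library. The sum of 2 endothelial genes, nearly all PECAM1, was 9.45 to 25.03, highest in Deo_6 at 20.26 to 25.03. The part of these markers in the results below was not tested. One library stood apart for several complex I subunits: Con_24 replicate 3 was lower than the other 2 libraries of its group in MT-ND4L, MT-ND4, MT-ND5 and MT-ND1. By smaller gaps it was also the lowest in MT-ND2 (4962 beside 5050 and 5318 TPM) and MT-ND3 (6531 beside 6660 and 6690 TPM). It was not the lowest in MT-ND6. Several of the results that use Con_24 are also given without replicate 3.

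By TPM the subunits were among the most abundant transcripts of the cells. How reads of MT-ND4L and MT-ND4 were divided is not given and may bear on the places of both. By mean TPM over all libraries MT-ND4L ranked 7 in the table, followed by MT-ND3 at 16, MT-ND2 at 23, MT-ND6 at 28, MT-ND4 at 29, MT-ND5 at 35 and MT-ND1 at 49. Together they held 3.67% ± 0.0652 of all TPM in Con_6, 3.63% ± 0.0694 in Deo_6, 4.04% ± 0.481 in Con_24 and 3.68% ± 0.178 in Deo_24 (SD, n = 3 each). With all libraries these ranges overlapped in all 4 comparisons of groups. In Con_24 the sum was 42213 and 44111 TPM in the first 2 libraries and 34986 TPM in replicate 3. Without replicate 3 both remaining Con_24 libraries were above all of Deo_24 and of Con_6: the log2 difference went from -0.13 to -0.23 with treatment at 24 h and from 0.13 to 0.23 over time in control cells.

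How much a subunit varied differed from gene to gene. MT-ND2 had the narrowest range, 4748 to 5344 TPM over the 12 libraries, a highest-to-lowest ratio of 1.13, and MT-ND1 came next with 2737 to 3283 TPM and a ratio of 1.20. MT-ND3 spanned a ratio of 1.35, MT-ND4 1.55, MT-ND6 1.59, MT-ND4L 1.71 and MT-ND5 1.75. The 2 subunits with the steadiest RNA were the 2 whose genes lie first on the genome in this order, ahead of COX1.

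The order of the levels also differed between groups. MT-ND4L was highest in all 4, and its libraries did not overlap those of the next subunit. Its mean ratio to MT-ND4 was 2.49 in Con_24 and 2.70 in Con_6, although the pair forms one RNA in mammals. Its place may therefore reflect the division of reads between the pair and not a higher RNA level, which was not tested. In Con_6 MT-ND4L was followed by MT-ND6, MT-ND3 and MT-ND5, whose neighbouring ranges overlapped, and then by MT-ND2, MT-ND4 and MT-ND1, each clear of the next. In Deo_6 MT-ND3 came after MT-ND4L and MT-ND2 after MT-ND3, both clear of their neighbours, and MT-ND5 overlapped MT-ND4. In Con_24 the sequence after MT-ND3 was MT-ND4 and MT-ND2, which overlapped, and then MT-ND6, MT-ND5 and MT-ND1, which overlapped their neighbours. In Deo_24 MT-ND5, at 3125 TPM ± 139, had come down to the level of MT-ND1 at 3125 TPM ± 211 (SD, n = 3 each), while MT-ND3, MT-ND2, MT-ND4 and MT-ND6 were each clear of the next. MT-ND6 therefore went from place 2 in Con_6 to place 5 in Con_24 and Deo_24.

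**Figure D1:**
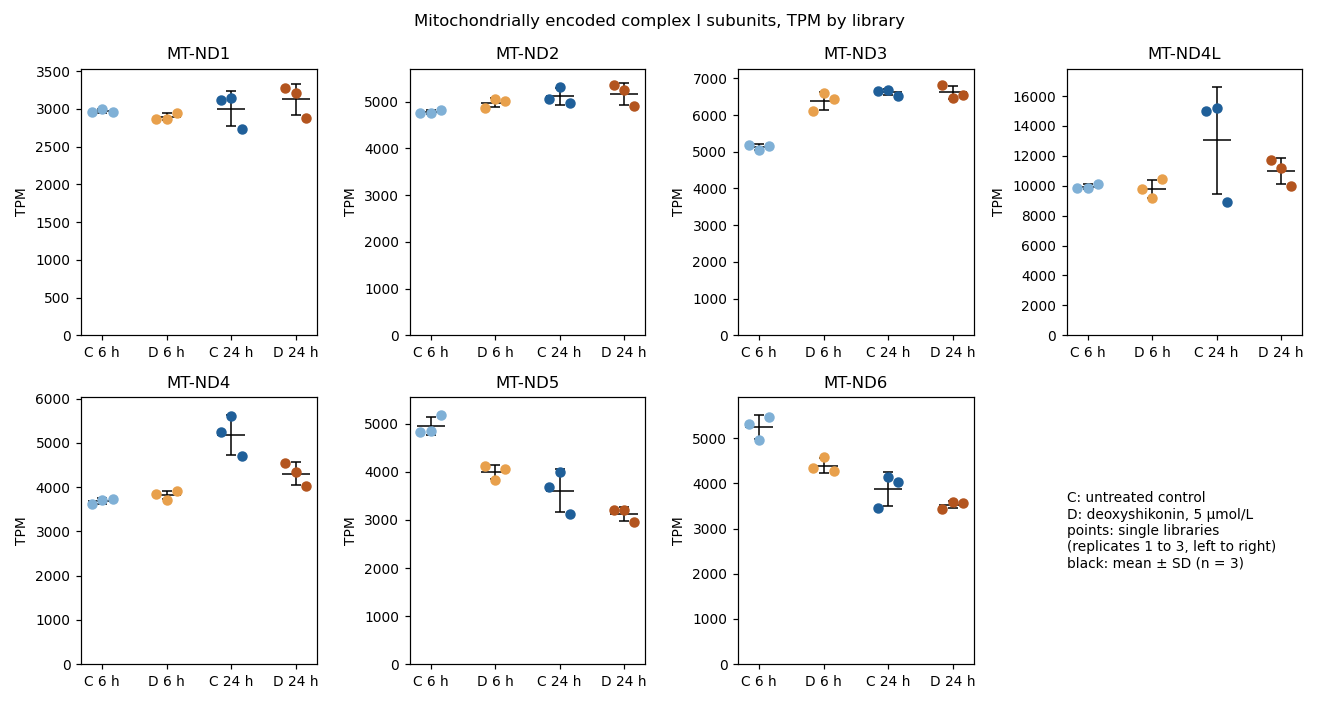
TPM of each subunit in every library (y axis, from 0; each panel has its own scale) for untreated control (C) and deoxyshikonin at 5 µmol/L (D) at 6 h and 24 h; points are single libraries, and black bars show the mean ± SD of 3. The Deo_6 points of MT-ND3 lie above and those of MT-ND5 and MT-ND6 below all Con_6 points, and one Con_24 point of MT-ND4L, replicate 3 at 8912 TPM, lies far below the other 2.

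The first comparison concerned the response of the subunits to 6 h of deoxyshikonin. MT-ND3 rose, MT-ND5 and MT-ND6 fell, and the other 4 did not pass the test. As parts of a fixed library total, these values give no amount per cell or per mitochondrion. Whether the number of mitochondria or the RNA in each changed was not tested. These 3 of 7 called subunits stood against a background in which 75.4% of all tested genes were called, 26.6% higher and 48.7% lower, so the share of subunits called was below that of all genes (limma, Benjamini-Hochberg over the 11897 tested genes, adjusted p under 0.05). The median log2 change of the 7 subunits was -0.03, beside -0.20 for all tested genes. How the calls split by direction changed with the scaling of the libraries: higher values made up 35.3% of the calls with TPM as deposited, 45.5% after median-of-ratios rescaling and 46.8% after quantile normalization, and the median of all genes moved from -0.20 to -0.07 and -0.05.

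MT-ND3, a small subunit near the ubiquinone site, was at 5179, 5051 and 5158 TPM in the Con_6 libraries and at 6119, 6607 and 6450 TPM in the Deo_6 libraries. Every treated library was above every control library. The mean was 24.6% higher, a log2 change of 0.32 with SE 0.0316 (adjusted p = 3.04e-06). Relative to the median of all genes the change was 0.52 on the log2 scale, and 0.54 after median-of-ratios rescaling. Under quantile normalization, which gives each rank in the table the same value in every library, MT-ND3 kept its direction at a log2 change of 0.06 and was no longer called (adjusted p = 0.429).

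MT-ND5, the terminal antiporter-like subunit of the membrane arm, was at 4824, 4855 and 5173 TPM in Con_6 and at 4113, 3834 and 4060 TPM in Deo_6. Its groups did not overlap either, with treated libraries lower. The mean fell by 19.2% (log2 change -0.31, SE 0.0758, adjusted p = 0.0032). MT-ND6, the single subunit encoded on the opposite strand, was at 5316, 4960 and 5479 TPM in Con_6 and at 4331, 4593 and 4265 TPM in Deo_6. All treated libraries were again below all controls, and the mean fell by 16.3% (log2 change -0.26, SE 0.0635, adjusted p = 0.0033). Relative to the median of all genes these falls were small, -0.11 for MT-ND5 and -0.05 for MT-ND6, and after median-of-ratios rescaling both stayed below 0 without being called (-0.15 with adjusted p = 0.0849 and -0.10 with adjusted p = 0.22).

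Of the subunits that did not pass the test at 6 h, MT-ND1 and MT-ND2 had ranges that did not overlap (adjusted p = 0.551 and 0.158). How many of all tested genes had groups without overlap was not counted. A lack of overlap is therefore only a description, here and throughout, and is no sign of an effect by itself. MT-ND2, an antiporter-like subunit, was at 4748 to 4821 TPM in Con_6 and 4863 to 5057 TPM in Deo_6, a log2 change of 0.06 (95% interval -0.02 to 0.14). MT-ND1 was at 2958 to 3000 TPM in Con_6 and 2867 to 2948 TPM in Deo_6, a change of -0.04 (-0.16 to 0.09). MT-ND4 had a change of 0.05 (-0.08 to 0.18) and MT-ND4L one of -0.03 (-0.39 to 0.33), the widest interval of the 7. Calls for these 4 depended on the scaling: MT-ND2 and MT-ND4 were called higher after median-of-ratios rescaling (0.21 each, adjusted p = 0.00211 and 0.0127), and lower after quantile normalization (-0.19 and -0.23, adjusted p = 0.000238 and 0.00859), where MT-ND1 was called lower as well (-0.19, adjusted p = 0.0218).

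**Figure D2:**
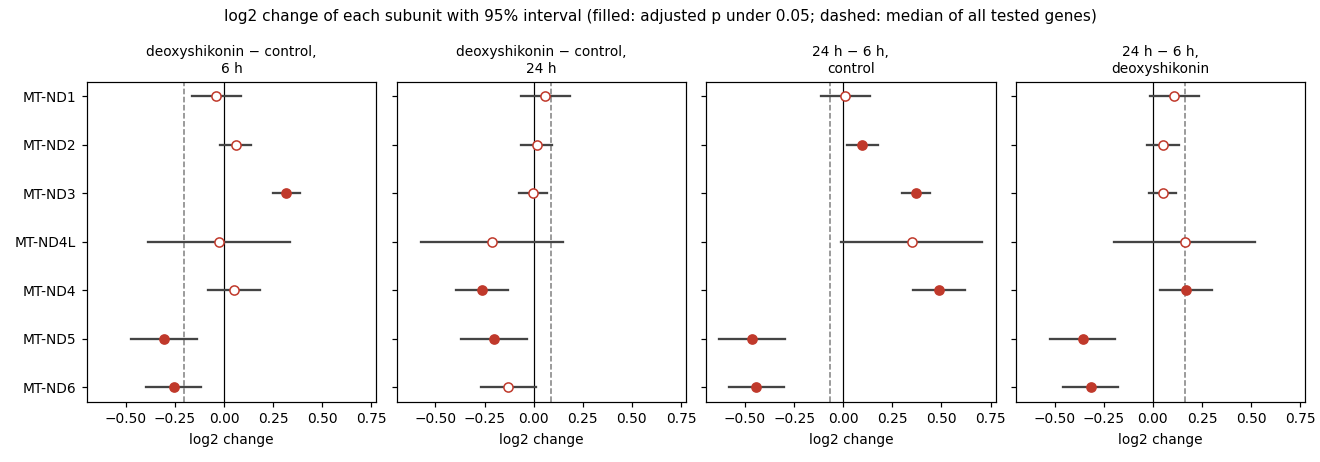
Log2 change of each subunit (x axis) with its 95% interval in 4 comparisons of groups; filled points have an adjusted p under 0.05 and the dashed line is the median of all 11897 tested genes. MT-ND5 and MT-ND6 lie left of 0 in all 4 panels, and MT-ND3 lies right of 0 at 6 h and in control cells over time but on 0 at 24 h.

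After 24 h of treatment MT-ND4 and MT-ND5 were lower than in control cells and no subunit was called higher. The background was 50.3% of all tested genes, 32.2% higher and 18.1% lower, beside 2 of the 7 subunits called. The median change of the subunits was -0.13 and that of all genes 0.09. Higher values made up 64% of the calls with TPM as deposited, but 49.6% after median-of-ratios rescaling and 49.6% after quantile normalization.

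MT-ND4, an antiporter-like subunit, was at 5250, 5602 and 4695 TPM in Con_24 and at 4544, 4352 and 4021 TPM in Deo_24. Its groups did not overlap at 24 h, although its lowest control and highest treated libraries lay close together. The mean fell by 16.8% (log2 change -0.27, SE 0.06, adjusted p = 0.00376). The call and its direction held in all 21 alternatives, with changes of -0.35 to -0.21.

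MT-ND5 was at 3695, 4006 and 3120 TPM in Con_24 and at 3200, 3211 and 2964 TPM in Deo_24. Here the ranges overlapped, with control replicate 3 below 2 treated libraries. The log2 change was -0.20 (SE 0.0758, adjusted p = 0.0464), a call that was lost in 15 of 21 alternatives, with adjusted p from 0.00125 to 0.176. Leaving out any one of the 12 libraries lost it, except Con_24 replicate 3, without which the change was -0.30 and the groups did not overlap. Without Con_24 replicate 2 the change was -0.12. MT-ND6, its neighbour, was at 3445, 4143 and 4029 TPM in Con_24 and at 3441, 3590 and 3561 TPM in Deo_24. The change of -0.13 (95% interval -0.27 to 0.01, adjusted p = 0.113) did not pass the test, though it did after median-of-ratios rescaling (-0.21, adjusted p = 0.0317) and quantile normalization (-0.22, adjusted p = 0.00282). It also did without Con_24 replicate 1 (-0.21, adjusted p = 0.00455), but not without Con_24 replicate 3 (-0.10, adjusted p = 0.292).

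MT-ND4L, whose reading frame runs into that of MT-ND4, showed how far one library could carry a result. The Con_24 libraries were at 14990, 15204 and 8912 TPM and the Deo_24 libraries at 11719, 11158 and 10006 TPM. Replicate 3 of the control was thus the lowest of the 6 libraries and the other 2 controls were the highest. With all libraries the log2 change was -0.21 (SE 0.163, adjusted p = 0.305). Without Con_24 replicate 3 it was -0.46 and called lower (adjusted p = 0.000337), which made 3 subunits lower and none higher. Of all 11897 genes 2074 were called lower in that fit and 3231 higher.

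The remaining 3 subunits differed little at 24 h. MT-ND3 was at 6531 to 6690 TPM in Con_24 and at 6478 to 6831 TPM in Deo_24, a log2 change of -0.0028, with a 95% interval of -0.07 to 0.07. MT-ND2 changed by 0.02 (-0.07 to 0.10) and MT-ND1 by 0.06 (-0.07 to 0.18). For these 3 the intervals hold no change as large as the 0.32 seen for MT-ND3 at 6 h. Their ranges overlapped between the groups.

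Whether the treatment effect differed between the times was tested as an interaction, the change at 24 h minus the change at 6 h. MT-ND3 and MT-ND4 passed the test and the other 5 did not. Both had a lower effect at 24 h on the log2 scale (-0.32, SE 0.0447, adjusted p = 9.25e-05 for MT-ND3, and -0.32, SE 0.0849, adjusted p = 0.007 for MT-ND4). Over all tested genes 63.0% were called, 45.0% with a higher and 18.0% with a lower effect at 24 h, and the median was 0.25, so both subunits moved against the direction of most called genes in this scaling. The share of called genes with a higher effect was 71.4% with TPM as deposited, 52.1% after median-of-ratios rescaling and 50.6% after quantile normalization. Both interactions were also called after median-of-ratios rescaling (-0.56 for MT-ND3 and -0.55 for MT-ND4). Under quantile normalization neither was, and MT-ND3 changed sign (0.08, adjusted p = 0.447, and -0.07, adjusted p = 0.535, for MT-ND4).

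For the other 5 subunits the interaction was 0.10 for MT-ND1, -0.04 for MT-ND2, -0.19 for MT-ND4L, 0.11 for MT-ND5 and 0.13 for MT-ND6, with adjusted p from 0.238 to 0.502. With TPM as deposited the falls of MT-ND5 and MT-ND6 were thus not shown to differ between the times. Under quantile normalization both interactions were called (0.34, adjusted p = 0.0217, and 0.30, adjusted p = 0.00276), and after median-of-ratios rescaling they were below 0 and not called (-0.13 and -0.11). MT-ND2 was called in opposite directions, 0.14 under quantile normalization (adjusted p = 0.0213) and -0.28 after median-of-ratios rescaling (adjusted p = 0.00474). Without Con_24 replicate 3 the interaction of MT-ND4L was -0.44 and was called (adjusted p = 0.00157).

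In untreated cells 5 of the 7 subunits differed between 24 h and 6 h, against a background of 56.4% of all tested genes, 22.2% higher and 34.2% lower. MT-ND4, MT-ND3 and MT-ND2 rose and MT-ND5 and MT-ND6 fell. The median change of the subunits was 0.10 and that of all genes -0.07. The share of called genes that were higher was 39.4% with TPM as deposited, 53.7% after median-of-ratios rescaling and 48.8% after quantile normalization.

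MT-ND4 went from 3612, 3714 and 3737 TPM in Con_6 to 5250, 5602 and 4695 TPM in Con_24. All libraries at 24 h were above all at 6 h, and the mean was 40.2% higher (log2 change 0.49, SE 0.06, adjusted p = 4.38e-05). MT-ND3 rose by 29.2% without overlap, from 5129 TPM ± 68.8 to 6627 TPM ± 84.5 (SD, n = 3 each, adjusted p = 2.9e-06), and its range at 24 h overlapped that of treated cells at 6 h, 6392 TPM ± 249. MT-ND2 rose by 0.10 on the log2 scale (adjusted p = 0.0405), a call lost in 11 of 21 alternatives, among them those without Con_24 replicate 1 or 2, any Con_6 library, Deo_24 replicate 2 or Deo_6 replicate 3 (adjusted p = 0.0513 to 0.152).

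The 2 falls were of similar size. MT-ND5 dropped by 27.5%, from 4951 TPM ± 193 to 3607 TPM ± 450, and MT-ND6 dropped by 26.4%, from 5252 TPM ± 265 to 3872 TPM ± 374 (SD, n = 3 each; adjusted p = 0.000345 and 0.000133). Neither pair of groups overlapped. The calls of MT-ND3, MT-ND4, MT-ND5 and MT-ND6 in this comparison held with the same direction in all 21 alternatives, the 3 other scalings among them.

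MT-ND4L had a log2 change of 0.35 over time in control cells (SE 0.163, adjusted p = 0.0912). It went from 9859 to 10121 TPM in Con_6 to 14990 and 15204 TPM in the first 2 Con_24 libraries, with replicate 3 at 8912 TPM, below every Con_6 library. Without that library the change was 0.60 (adjusted p = 4.53e-05), and 6 of 7 subunits were called, 4 higher and 2 lower. Of all 11897 genes 6239 were called in that fit, 2567 higher and 3672 lower. MT-ND1 was the one subunit called in neither case, with a change of 0.01 (95% interval -0.11 to 0.14).

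In treated cells 3 of the 7 subunits differed between 24 h and 6 h, beside 75.0% of all tested genes, 46.8% higher and 28.2% lower. MT-ND5 and MT-ND6 fell and MT-ND4 rose. The median of the subunits was 0.05 and that of all genes 0.16. Higher values made up 62.4% of the calls with TPM as deposited, 53% after median-of-ratios rescaling and 49% after quantile normalization. MT-ND5 went from 4002 TPM ± 148 to 3125 TPM ± 139 and MT-ND6 from 4396 TPM ± 174 to 3530 TPM ± 78.9 (SD, n = 3 each), both without overlap. Their log2 changes were -0.36 (SE 0.0758, adjusted p = 0.00121) and -0.32 (SE 0.0635, adjusted p = 0.000826), and both calls held in all 21 alternatives. MT-ND4 rose from 3822 TPM ± 100 to 4306 TPM ± 265 (log2 change 0.17, SE 0.06, adjusted p = 0.0231). That rise equals the median of all genes within 0.01 and was not called after median-of-ratios rescaling, at 0.04 (adjusted p = 0.61), nor without Deo_24 replicate 1 (0.13), Deo_24 replicate 2 (0.16) or Deo_6 replicate 2 (0.15). Without Deo_24 replicate 3 or Con_24 replicate 3, 5 subunits were called: MT-ND1 (0.16) and MT-ND2 (0.09) were added in the first case, MT-ND1 (0.11) and MT-ND4L (0.16) in the second. Of all 11897 genes 8614 were called in the first case and 8984 in the second.

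The comparisons share libraries, so they are set side by side here without any measure of likeness. MT-ND5 had changes of -0.31 and -0.20 with treatment at 6 h and 24 h and of -0.46 and -0.36 with time in control and treated cells. MT-ND6 had -0.26, -0.13, -0.44 and -0.32 in the same order. MT-ND4 had 0.05, -0.27, 0.49 and 0.17, and MT-ND3 had 0.32, -0.0028, 0.37 and 0.05. In the 4 group means MT-ND5 and MT-ND6 were both highest in Con_6 and lowest in Deo_24. MT-ND3 was lowest in Con_6 and within 6392 to 6627 TPM in the other 3, and MT-ND4 was highest in Con_24.

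**Figure D3:**
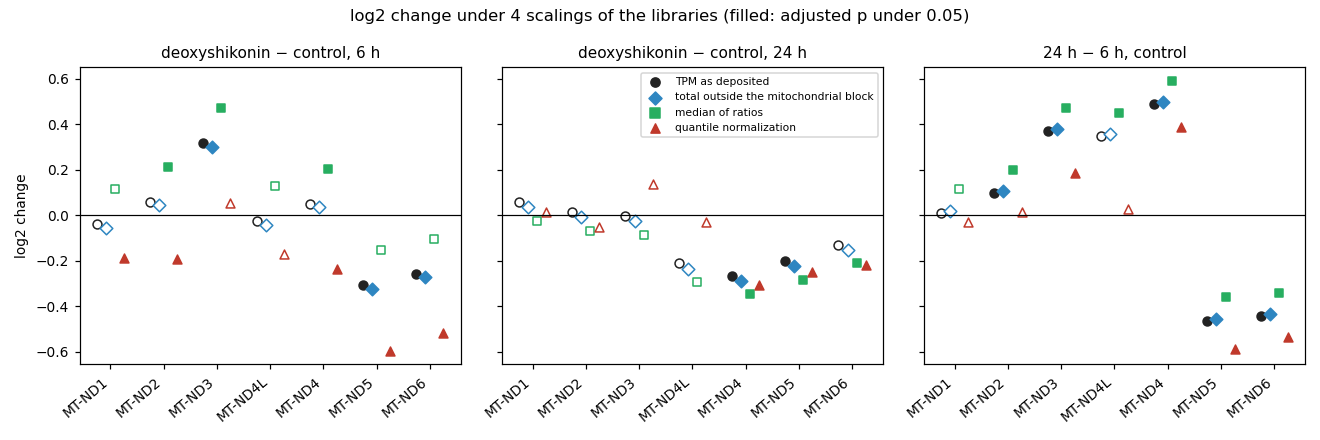
Log2 change of each subunit (y axis) in 3 comparisons under TPM as deposited and 3 rescalings of the libraries; filled symbols have an adjusted p under 0.05. Over time in control cells the filled symbols of MT-ND3, MT-ND4, MT-ND5 and MT-ND6 keep their side of 0 under all 4 scalings, whereas at 6 h MT-ND2 and MT-ND4 change sign between median-of-ratios and quantile scaling.

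Shares within the 7 subunits are the same whatever factor a library is multiplied by, so they show which subunits changed relative to the others. MT-ND5 made up 13.48% ± 0.305 of the summed TPM in Con_6, 11.03% ± 0.391 in Deo_6, 8.92% ± 0.164 in Con_24 and 8.49% ± 0.14 in Deo_24 (SD, n = 3 each). It was the one subunit whose share was lower without overlap in all 4 comparisons, with treatment at both times and at 24 h against 6 h in both control and treated cells. At 24 h the gap was narrow, between 8.62% in the highest treated and 8.75% in the lowest control library.

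MT-ND6 fell with it in 3 of these comparisons. Its share was 14.3% ± 0.519 in Con_6, 12.13% ± 0.655 in Deo_6, 9.69% ± 1.7 in Con_24 and 9.61% ± 0.621 in Deo_24 (SD, n = 3 each), and only the comparison at 24 h overlapped. MT-ND3 took 13.97% ± 0.21 in Con_6 and 17.63% ± 0.713 in Deo_6, without overlap, and 16.54% ± 1.87 and 17.98% ± 0.694 at 24 h, with overlap. MT-ND4 took 10.05% ± 0.19 in Con_6, 10.54% ± 0.169 in Deo_6, 12.85% ± 0.51 in Con_24 and 11.69% ± 0.157 in Deo_24, with no overlap in any of the 4 comparisons, higher in Deo_6 than Con_6 and lower in Deo_24 than Con_24. MT-ND4L held the largest share throughout, 27.09%, 26.97%, 31.82% and 29.73% in the same order, with an SD of 5.52 in Con_24. MT-ND1 had shares of 8.10%, 7.98%, 7.45% and 8.48%, which overlapped at 6 h alone: the share was higher in Deo_24 than in Con_24 and Deo_6, and lower in Con_24 than in Con_6. MT-ND2 had 13.01%, 13.72%, 12.73% and 14.03%, higher in Deo_6 than in Con_6 without overlap and with overlap in the other 3 comparisons.

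Several of these overlaps came from Con_24 replicate 3. Without it the means of Con_24 were 12.01% for MT-ND2, 15.47% for MT-ND3 and 34.99% for MT-ND4L. At 24 h the treated libraries were then above both controls in MT-ND2 and MT-ND3 and below both in MT-ND4L. Over time in control cells MT-ND2 was then lower and MT-ND4L higher without overlap. MT-ND6 still overlapped at 24 h, and the separations described for MT-ND1, MT-ND4 and MT-ND5 held.

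**Figure D4:**
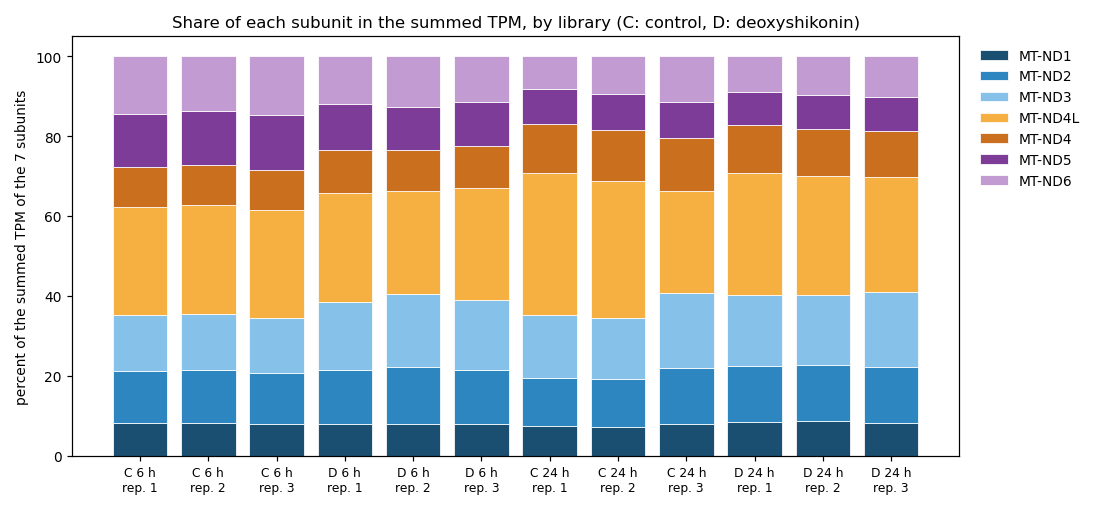
Percent of the summed TPM of the 7 subunits held by each of them (y axis, 0 to 100), one stacked bar per library, for control (C) and deoxyshikonin (D) at 6 h and 24 h. The 2 top segments, MT-ND5 and MT-ND6, narrow from Con_6 to the 24 h bars, and the MT-ND4L segment of Con_24 replicate 3 is narrower than those of the other 2 libraries of its group.

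A pair of ratios between neighbours were tested with exact two-sided permutation tests, in which 3 libraries against 3 cannot give a p below 0.1. The ratio of MT-ND4L to MT-ND4, the pair that shares an RNA, was 2.70 ± 0.0379 in Con_6 and 2.56 ± 0.0973 in Deo_6 (SD, n = 3 each, exact p = 0.2, 0.8 after adjustment over the 4 tests). At 24 h it was 2.49 ± 0.517 in Con_24 and 2.54 ± 0.0486 in Deo_24 (exact p = 1.0, adjusted 1.0). The control spread came from replicate 3, at 1.90, beside 2.86 in the highest library, and without replicate 3 the treated ratio was the lower one (log2 difference -0.13 in place of 0.05). The ratio of MT-ND6 to MT-ND5, which lie on opposite strands, was 1.06 ± 0.0403 in Con_6, 1.10 ± 0.0844 in Deo_6, 1.09 ± 0.185 in Con_24 and 1.13 ± 0.0641 in Deo_24 (SD, n = 3 each, exact p = 0.7 at 6 h and 0.7 at 24 h, adjusted 0.933 for both). In Con_24 it was 0.93, 1.03 and 1.29, the last in replicate 3. The log2 difference at 24 h was 0.07 with all libraries, 0.20 without that library and -0.03 without Con_24 replicate 1. The ranges of both ratios overlapped at both times.

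Across the 12 libraries the subunits fell into a pattern of rises and falls that is described here without a test, since the points share libraries and their scaling. MT-ND5 and MT-ND6 went together (Pearson's r 0.885, Spearman's rho 0.86), as did MT-ND2 and MT-ND3 (0.78 and 0.86) and MT-ND4L and MT-ND4 (0.806 and 0.58, with r 0.972 without Con_24 replicate 3). MT-ND3 went opposite to MT-ND5 (-0.826 and -0.72) and to MT-ND6 (-0.84 and -0.776). The picture within groups was another one. On deviations from the group means, all 15 pairs without MT-ND6 had an r above 0, up to 0.937 for MT-ND1 with MT-ND4 and 0.927 for MT-ND4 with MT-ND5, while only 2 of the 6 pairs with MT-ND6 did, and MT-ND5 with MT-ND6 had -0.0627. Con_24 replicate 3, the library that stood apart, is among these deviations, and its part in them was not tested.

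The other 6 mitochondrial protein-coding genes, subunits of cytochrome c oxidase (COX1, COX2, COX3), ATP synthase (ATP6, ATP8) and complex III (CYTB), gave the setting on the same genome. Their summed TPM was 81559 ± 1050 in Con_6, 71219 ± 1030 in Deo_6, 83360 ± 3720 in Con_24 and 72768 ± 3790 in Deo_24 (SD, n = 3 each), and fell by 12.7% with treatment at both times without overlap with TPM as deposited. After median-of-ratios rescaling it fell by 2.84% at 6 h, with overlap, and by 17.4% at 24 h, without overlap. The complex I subunits made up more of the 13-gene total in Deo_6, 33.74% ± 0.105, than in Con_6, 31.04% ± 0.456, without overlap (SD, n = 3 each). At 24 h the shares were 33.61% ± 0.248 in Deo_24 and 32.59% ± 1.84 in Con_24 and overlapped. Without Con_24 replicate 3 the share of Con_24 was 33.65%, still overlapping Deo_24 but clear of Con_6.

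At 6 h COX1, COX2, COX3 and ATP6 were called lower (-0.21, -0.28, -0.18 and -0.10 on the log2 scale as deposited), and none of the 6 was called higher. Of all tested genes 48.7% were called lower there and 26.6% higher. After median-of-ratios rescaling none of the 6 was called, beside 4877 of all 11897 genes called lower and 4075 higher. MT-ND3 was thus the only one of the 13 genes called higher at 6 h with TPM as deposited; after median-of-ratios rescaling MT-ND2 and MT-ND4 joined it, and under quantile normalization no member of the 7 was called higher. It lies directly after COX3, which fell by 0.18 (SE 0.029, adjusted p = 0.000131). At 24 h COX1, COX2 and CYTB were called lower (-0.21, -0.27 and -0.54) with the deposited values, beside 18.1% of all genes called lower and 32.2% higher. With median-of-ratios factors these 3 were likewise called lower. Under quantile normalization CYTB alone of these 3 was, and ATP6 and COX3 were called higher (0.12 and 0.14, adjusted p = 0.0494 and 0.0265).

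Changes along the genome over time in control cells were of both signs, in runs of rises and falls, and ND1, ATP8 and ND4L were not called. After ND1 (0.01) and ND2 (0.10) came COX1 at -0.31, COX2 at 0.31, ATP8 at 0.57 (adjusted p = 0.139), ATP6 at 0.46, COX3 at -0.18, ND3 at 0.37, ND4L at 0.35, ND4 at 0.49, ND5 at -0.46, ND6 at -0.44 and CYTB at 0.86 (adjusted p = 1.11e-06). ND5 and ND6 therefore lay between 2 genes that rose, ND4 and CYTB, and all 4 kept these directions and calls under each of the 3 other scalings. ATP6 did not, with 0.46 as deposited and -0.12 (adjusted p = 0.0449) under quantile normalization.

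**Figure D5:**
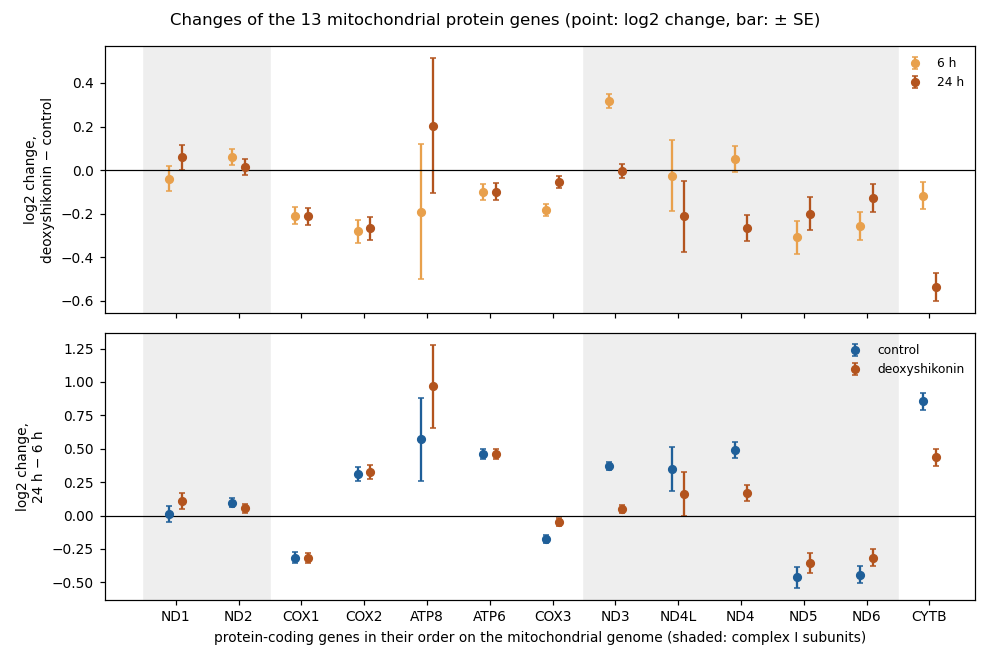
Log2 change ± SE (y axes) of the 13 mitochondrial protein-coding genes in their order on the mitochondrial genome (x axis, evenly spaced; complex I subunits shaded), with treatment at 6 h and 24 h above and with time in control and treated cells below. ND3 at 6 h (0.32) stands above its neighbour COX3 (-0.18), and over time in control cells ND5 (-0.46) and ND6 (-0.44) stand below ND4 (0.49) and CYTB (0.86).

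The numbered run of 37 Ensembl identifiers that holds the mitochondrial genes contains, beside these 13, 22 identifiers at 0 in all libraries and 2 above 0 that the name tables do not name. Those 2 had higher TPM in treated cells at both times: ENSSSCG00000018061 had a log2 change of 1.28 at 6 h and 1.07 at 24 h, and ENSSSCG00000018063 had 0.91 and 0.88. No complex I subunit changed by as much in any comparison.

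Most other subunits of complex I are encoded in the nucleus. Of 37 listed symbols 29 were found in the table, and all 29 were tested. At 6 h 25 were lower in treated cells and none higher, beside 48.7% of all genes called lower, with a median of -0.43 beside -0.20 for all genes. After median-of-ratios rescaling 19 were lower and none higher, beside 4877 of all 11897 genes lower and 4075 higher. After quantile normalization 22 were lower and none higher, beside 4706 and 4140 of all genes. NDUFS6, a subunit of the matrix arm, fell by 0.83 on the log2 scale (SE 0.0733, adjusted p = 1.13e-06), from 157 TPM ± 5.9 to 88.2 TPM ± 8.08, and NDUFB10, of the membrane arm, fell by 0.71 (SE 0.0351, adjusted p = 1.19e-08), from 172 TPM ± 5.04 to 105 TPM ± 2.66 (SD, n = 3 each). The mitochondrially encoded subunits had a median of -0.03 in the same comparison, and the difference between the 2 sets was not tested.

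At 24 h 6 of the 29 nuclear subunits were higher and 7 lower, with a median of -0.07, beside 50.3% of all genes called and a median of 0.09. NDUFB1 (0.31, adjusted p = 0.00176) and NDUFA5 (0.25, adjusted p = 0.0301) rose the most, and NDUFV1, which carries the site where NADH is oxidised (-0.36, adjusted p = 0.000585), and NDUFA10 (-0.27, adjusted p = 0.000998) fell the most. NDUFA5 was not called after median-of-ratios rescaling (0.17, adjusted p = 0.136), where 3 of the 29 were higher and 11 lower. Of all 11897 genes 2895 were called higher there and 2942 lower. Over time in control cells 16 were lower and none higher, beside 34.2% of all genes called lower and 22.2% higher. NDUFAB1, the mitochondrial acyl carrier protein (-0.70, adjusted p = 4.79e-08), and NDUFS6 (-0.50, adjusted p = 0.000148) fell the most. Median-of-ratios rescaling gave 11 lower and 1 higher, beside 3112 of all 11897 genes lower and 3606 higher. Leaving out Con_24 replicate 3 gave 20 lower and none higher, beside 3672 and 2567 of all genes. In treated cells over time 16 were higher and 2 lower, beside 46.8% of all genes called higher and 28.2% lower. With median-of-ratios factors the counts were 7 and 3, beside 4776 and 4229 of all 11897 genes. The interaction was called for 21 of the 29, all with a higher effect at 24 h, beside 63.0% of all genes called, 45.0% higher. It was called for 19 with a higher and 1 with a lower effect under quantile normalization, beside 3592 and 3513 of all 11897 genes. After median-of-ratios rescaling it was called for 11 and 1, beside 3775 and 3473 of all genes.

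Complex I assembly factors, which help build the complex but are not part of it, were mostly lower at 6 h: of 13 matched among 14 symbols, 11 were lower and 1 higher, with a median of -0.52. Of all tested genes 75.4% were called there, 48.7% lower, with a median of -0.20. ACAD9 (-1.11, SE 0.0601, adjusted p = 2.29e-08) and NDUFAF4 (-0.92, SE 0.0858, adjusted p = 1.73e-06) fell the most, and NDUFAF5 rose (0.22, SE 0.0723, adjusted p = 0.0163). Median-of-ratios rescaling gave 10 lower and 2 higher, beside 4877 of all 11897 genes lower and 4075 higher. Quantile normalization gave 8 and 2, beside 4706 and 4140 of all genes. At 24 h TIMMDC1 rose (0.34, adjusted p = 0.00686) and NDUFAF4 fell (-0.31, adjusted p = 0.0115), and the other 11 were not called, beside 50.3% of all genes called. After median-of-ratios rescaling and under quantile normalization 5 were lower and 1 higher. Of all 11897 genes 2942 were lower and 2895 higher in the first case, and 3015 and 2971 in the second. In control cells over time 9 were lower, NDUFAF6 (-0.74, adjusted p = 7.86e-05) and FOXRED1 (-0.67, adjusted p = 7.01e-05) the most, and NDUFAF3 was higher (0.34, adjusted p = 0.00244). Of all genes 34.2% were called lower there and 22.2% higher. Median-of-ratios rescaling and quantile normalization each gave 6 lower and 1 higher in that comparison. Of all 11897 genes 3112 were lower and 3606 higher in the first case, and 3418 and 3259 in the second.

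Genes of mitochondrial transcription and RNA turnover, whose products make, cut, stabilise and degrade the mitochondrial RNAs, were matched for 20 of 21 symbols. At 6 h 4 were higher and 10 lower, with a median of -0.28. These 14 of 20 were close to the 75.4% of all genes called, whose median was -0.20. PRORP and ELAC2 encode the enzymes that cut on either side of mitochondrial transfer RNAs, and they moved in opposite directions. PRORP rose from 202 TPM ± 0.82 to 401 TPM ± 16 (log2 change 0.99, SE 0.058, adjusted p = 4.34e-08), and ELAC2 fell from 65.8 TPM ± 1.62 to 19.8 TPM ± 2.68 (-1.69, SE 0.0856, adjusted p = 1.41e-08; SD, n = 3 each). FASTKD5, which takes part in processing sites that have no transfer RNA, rose by 1.69 (SE 0.269, adjusted p = 0.000136) from a low level of 1.3 TPM ± 0.474 to 6.34 TPM ± 0.616. HSD17B10, a partner of PRORP, fell by 1.19 (SE 0.376, adjusted p = 0.013), from a low level of 9.04 TPM ± 1.74 to 3.45 TPM ± 1.15. It was not called after quantile normalization (-0.92, adjusted p = 0.0553). The directions of PRORP, ELAC2 and FASTKD5 at 6 h were the same and called in the 3 other scalings.

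At 24 h 2 of these 20 genes were higher and 2 lower with TPM as deposited, beside 50.3% of all genes called. After median-of-ratios rescaling and under quantile normalization 2 were higher and 5 lower. Of all 11897 genes 2895 were higher and 2942 lower in the first case, and 2971 and 3015 in the second. PRORP (0.43, adjusted p = 0.000131) and POLRMT, the mitochondrial RNA polymerase (0.27, adjusted p = 0.00928), rose, and LRPPRC, which stabilises mitochondrial messenger RNAs (-0.39, adjusted p = 6.92e-05), and FASTKD1 (-0.21, adjusted p = 0.00705) fell. In control cells over time 17 were lower and none higher, beside 34.2% of all genes called lower and 22.2% higher. The median was -0.39 beside -0.07 for all genes. HSD17B10 (-1.41, adjusted p = 0.00778) and PNPT1, which degrades mitochondrial RNA (-0.83, adjusted p = 1.47e-06), fell the most. After median-of-ratios rescaling 14 were lower and 2 higher, beside 3112 of all 11897 genes lower and 3606 higher. Without Con_24 replicate 3 there were 14 lower and none higher, beside 3672 and 2567 of all genes.

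By Pearson's r, a pair of genes outside the mitochondrial genome had the highest values with the mean log2 level of the 7 subunits over the 12 libraries, among the 11897 tested genes. They were CREB3L1, a membrane-bound transcription factor (Pearson's r 0.867, Spearman's rho 0.629) and SLC37A2, a sugar phosphate transporter (0.833 and 0.741). The next by r, PHKA2, had a higher rho than either (0.792 and 0.748). CREB3L1 was at 131 TPM ± 20.9 in Con_6, 127 TPM ± 2.79 in Deo_6, 218 TPM ± 79.2 in Con_24 and 151 TPM ± 26.3 in Deo_24. SLC37A2, near the minimum mean of 1 TPM, was at 1.45 ± 0.235, 0.963 ± 0.225, 1.77 ± 0.731 and 1.18 ± 0.247 TPM in the same order (SD, n = 3 each). Both had their highest mean in Con_24, the group whose libraries spread most in the summed level of the subunits. The part of single Con_24 libraries in these correlations was not tested.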

How the data were processed

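RNA sequencing values came from 12 libraries in 4 groups of 3, grouped by sample title. The authors deposited one table of TPM per gene. The submitters' processing notes name fastp, HISAT and RSEM without role or version; the genome build, annotation release and strand setting are not given in the sources used here. TPM keeps no sequencing depth, so the precision of a value is known only from the spread between libraries.

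Values were analysed as log2(TPM + 1) in limma 3.58.1 (R 4.3.3; lmFit, contrasts.fit, eBayes with a trend) over the 11897 of 32518 genes that averaged 1 TPM or more, all 12 libraries in one fit with 8 residual degrees of freedom, and Benjamini-Hochberg adjustment over all tested genes at a threshold of 0.05. A change on this scale understates that of genes with low TPM. Ratios of subunits were compared with exact permutation tests (SciPy 1.17.1). Symbols came from a pig gene name table, which named 15029 identifiers; gene order, strand and overlaps came from RefSeq. The members and gene lists were chosen with earlier results of these data known. Named genes were the 7 subunits, the 2 genes most correlated with their mean log2 level, and in each list at most 2 that rose and 2 that fell by largest change; single genes named for cell type or genome position were additional. For the 6 h comparison, data were simulated with 200 of 11897 genes raised by 1 log2 unit. Of these 94% were recovered, and 6% of calls were false. At 0.5 log2 units the rates were 71.5% and 4.03%. The simulation shifted no other genes, so its rates do not cover data in which 75.4% of genes were called. Alternatives were a pseudocount of 0.1, no filter or a minimum mean of 5 TPM, 3 rescalings of the libraries (quantile; median of ratios over 7459 genes; total outside the numbered mitochondrial identifiers), a replicate block, no trend, only the compared groups, and leaving out each library. The list counts under the rescalings, the other 6 mitochondrial genes' sum under them, and shares without Con_24 replicate 3 were added after seeing the data.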

Additional observations from a re-analysis of the deposited data

Results flagged for a closer look

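The treatment effect on MT-ND3 differed between the 2 times by an interaction test, -0.3196 on the log2 scale (24 h minus 6 h, limma, adjusted p = 9.25e-05): all 3 treated libraries were above all controls at 6 h and the groups overlapped at 24 h. The effect on MT-ND4 differed by -0.3168 (adjusted p = 0.007): its groups overlapped at 6 h and all 3 treated libraries were below all controls at 24 h. Both calls were lost under quantile normalization.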

How the results depend on the processing

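Of the 35 effects of the subunits (7 genes in 5 comparisons), 15 were called, and 7 of these kept direction and call under every alternative run (21 per comparison of groups, 20 for the interaction): MT-ND4 with treatment at 24 h, MT-ND3, MT-ND4, MT-ND5 and MT-ND6 over time in control cells, and MT-ND5 and MT-ND6 over time in treated cells. The cause of the changes below was not tested. Quantile normalization reversed, on the log2 scale, MT-ND2 (-0.1929) and MT-ND4 (-0.2345) with treatment at 6 h, MT-ND2 (-0.0522) and MT-ND3 (0.1359) at 24 h, MT-ND2 (0.1407), MT-ND3 (0.0805) and MT-ND4L (0.1427) in the interaction, and MT-ND1 (-0.0275) over time in control cells. Median-of-ratios rescaling reversed MT-ND1 (0.1152) and MT-ND4L (0.1288) at 6 h, MT-ND1 (-0.0237) and MT-ND2 (-0.067) at 24 h, MT-ND1 (-0.1389), MT-ND5 (-0.1297) and MT-ND6 (-0.1091) in the interaction, and MT-ND1 (-0.0243), MT-ND2 (-0.08) and MT-ND3 (-0.0828) over time in treated cells. Rescaling to the total outside the mitochondrial identifiers reversed MT-ND2 at 24 h (-0.007). Of these, only the interaction of MT-ND3 had been called. Leaving out single libraries gave ranges that crossed 0 for MT-ND4L at 6 h (-0.0717 to 0.0197), for MT-ND1 (-0.0068 to 0.1149), MT-ND2 (-0.0099 to 0.0527) and MT-ND3 (-0.0261 to 0.0122) at 24 h, for MT-ND1 over time in control cells (-0.0244 to 0.0764), and for the log2 ratios of MT-ND4L to MT-ND4 at 24 h (-0.1302 to 0.1643) and of MT-ND6 to MT-ND5 at 6 h (-0.01172 to 0.08298) and 24 h (-0.03179 to 0.2032).

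The number of subunits called with treatment at 6 h was 5 under quantile normalization in place of 3, with 8846 of all 11897 genes called in place of 8968. At 24 h it was 1 in place of 2 with no filter, with no trend and with only the compared groups, and 1 to 3 when single libraries were left out. Genes called were 6545 (of a larger tested set), 5959 and 5147 in place of 5985, and 4970 to 6134 without single libraries. Over time in treated cells 6 subunits were called under quantile normalization in place of 3, and 2 to 5 when single libraries were left out. Of all genes 8899 were called in place of 8918, and 8512 to 8984 without single libraries. The log2 difference of the summed level after median-of-ratios rescaling was 0.1364 in place of -0.01761 at 6 h, and -0.1117 in place of 0.021 over time in treated cells.

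The replicate numbers shared by the groups did not pair the libraries: over 12 same-numbered pairs the correlations of deviations from the group means were -0.115 to 0.109, 1 of them over 0.1. A fit with a replicate block called 8955 genes at 6 h (8968 without it), 5843 at 24 h (5985), 7397 for the interaction (7497), 6572 over time in control cells (6709) and 8849 in treated cells (8918). The replicate block left 1 subunit called at 24 h in place of 2, MT-ND5 being lost at an adjusted p of 0.0579, and changed no other call among the subunits.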
